A study of Mus musculus with 2 samples.

Results

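The hedgehog ligands, receptors and effectors described here are 9 genes chosen by name for their role in the pathway, out of 43346 gene rows in each library. They comprise the ligands Shh, Ihh and Dhh, the receptor Ptch1, the signal transducer Smo, the ligand-binding antagonist Hhip, and the transcription factors Gli1, Gli2 and Gli3. The rule that names them uses no measured value. All 9 had a row in both libraries, and 8 of 9 were detected, meaning 1 TPM or more in both (TPM is a level per unit of transcript length, with a fixed sum per library). The same threshold was met by 34.2% of all gene rows and by 61.5% of genes annotated as coding for protein.

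RNA was measured by total RNA-seq in whole lung of B6NCrl mouse embryos at day 16.5 of development, within the ENCODE project. The series holds 1 group, of healthy embryos by its labels, with no allele or treatment named, with 2 biological replicates. Male and female embryos were pooled in each, 41 of them in replicate 2 and an unstated number in replicate 1. Replicates 1 and 2 had 38852470 and 27145411 expected counts. With no second group, the data allow a description of levels and of the spread between the pools. An exact two-sided sign-flip test over 2 replicates cannot go below p = 0.5, so no test was made, and each mean is given ± SD over n = 2.

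Hedgehog proteins are secreted, lipid-modified signals. In their absence the receptor PTCH1 holds the membrane protein SMO inactive, and GLI proteins, GLI3 above all, are cut to repressors. Ligand binding to PTCH1 releases SMO, full-length GLI proteins then activate targets, and Gli1, Ptch1 and Hhip are themselves targets, the last of which encodes a membrane protein that binds and sequesters the ligand. In the developing lung Shh is made by the airway epithelium and is received by the surrounding mesenchyme, where it supports branching growth, mesenchymal proliferation and airway smooth muscle. All of these cells were present in these whole-tissue libraries as one RNA pool, in which fewer cells of a type and less RNA per cell cannot be told apart.

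The ligand genes and the GLI genes are paralogues, so how well reads can be told apart bears on each level below. The stretches that follow are 90 coding bases (GENCODE M21, build GRCm38), each within a single exon. They were chosen for the highest summed identity of the other paralogues to Shh or to Gli1. They are printed 5′ to 3′ on the gene's strand, with capitals where all 3 paralogues have the same base. The ligand stretches lie in exon 2 of Shh (chr5:28461469-28461558, minus strand), exon 2 of Ihh (chr1:74948451-74948540, minus strand) and exon 2 of Dhh (chr15:98894960-98895049, minus strand).
Shh: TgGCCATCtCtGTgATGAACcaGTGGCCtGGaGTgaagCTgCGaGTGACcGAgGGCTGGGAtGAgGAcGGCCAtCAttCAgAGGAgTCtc
Ihh: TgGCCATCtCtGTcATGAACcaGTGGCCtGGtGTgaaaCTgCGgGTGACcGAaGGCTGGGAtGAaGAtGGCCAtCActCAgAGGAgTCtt
Dhh: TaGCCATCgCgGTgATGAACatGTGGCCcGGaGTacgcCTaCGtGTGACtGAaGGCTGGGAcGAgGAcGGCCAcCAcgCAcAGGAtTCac
Of these 90 bases, 64 were identical in all 3 ligands. Shh and Ihh shared 81 bases, Shh and Dhh 69, and Ihh and Dhh 66, so Dhh was the most distant of the trio in this stretch.

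The GLI stretches lie in the zinc-finger coding region, in exon 11 of Gli1 (chr10:127333691-127333780, minus strand), exon 12 of Gli2 (chr1:118842090-118842179, minus strand) and exon 13 of Gli3 (chr13:15720073-15720162, plus strand).
Gli1: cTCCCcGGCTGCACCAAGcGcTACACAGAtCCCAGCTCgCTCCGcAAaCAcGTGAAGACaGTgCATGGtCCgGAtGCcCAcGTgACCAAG
Gli2: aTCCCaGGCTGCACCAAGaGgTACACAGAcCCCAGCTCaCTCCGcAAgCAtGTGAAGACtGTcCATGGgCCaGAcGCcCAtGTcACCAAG
Gli3: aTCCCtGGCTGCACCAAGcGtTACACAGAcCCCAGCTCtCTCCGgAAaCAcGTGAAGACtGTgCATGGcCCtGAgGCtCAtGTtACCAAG
Of these 90 bases, 73 were identical in all 3 GLI genes. Gli1 and Gli2 shared 75 bases, while Gli3 shared 77 with each of the others. The differences are scattered along the stretches, and the longest run shared exactly by the leading transcripts was 17 nt for Shh and Ihh, 17 nt for Shh and Dhh, 23 nt for Gli1 and Gli2 and 25 nt for Gli2 and Gli3. The longest such run between any pair of members was 33 nt, between Dhh and Smo. These runs were searched in M21 transcript sequences. The models behind the deposited values were shorter for several members, Dhh among them, as given below. Whether a run lies in the shorter models was not checked. Read length is not given in the sources used here.

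Shh, the main hedgehog ligand of the lung epithelium, was the highest of the ligands. It stood at 8.24 and 9.23 TPM in replicates 1 and 2 (8.735 ± 0.70 TPM), from 558.07 and 443.70 expected counts. The gene (ENSMUSG00000002633) lies on the minus strand of chromosome 5 at 28456815 to 28467256 in build mm10. Dhh, known for its roles in testis and in the sheaths of peripheral nerves, stood at 2.62 and 1.72 TPM (2.17 ± 0.636 TPM), from 155 and 72 counts. Its locus (ENSMUSG00000023000) is on the minus strand of chromosome 15 at 98891152 to 98898540. Ihh, the ligand of growth-plate cartilage and gut epithelium, was the member that was not detected, at 0.15 and 0.18 TPM. It lies on the minus strand of chromosome 1 at 74945315 to 74951672 (ENSMUSG00000006538).

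The 8 expected counts of Ihh in each library have an exact 95% Poisson interval of 3.45 to 15.8, which covers counting error only. The level that 3 counts would give, the upper limit for a count of 0, was 0.0563 and 0.0675 TPM. Ihh was therefore above that floor and below the detection threshold in both libraries. Of the cartilage markers 2 of 5 were detected, with a summed level of 29.0 and 26.8 TPM. The collagen genes Col2a1 and Col9a1 stood at 16.05 and 14.21 TPM and at 11.02 and 10.68 TPM. Acan stood at 0.72 and 0.63 TPM, Matn1 at 0.76 and 1.08 TPM, and Col10a1, a marker of hypertrophic cartilage, at 0.45 and 0.16 TPM. Their part in the Ihh level was not tested.

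The order Shh, Dhh, Ihh was the same in both libraries. Within a library, Shh exceeded Dhh by 2.04 ± 0.55 and Ihh by 5.73 ± 0.07 on the log2 scale, and Dhh exceeded Ihh by 3.69 ± 0.62, each over 2 SD. Summed, the ligands gave 11.01 and 11.13 TPM, a smaller difference than either detected ligand showed alone. Shh made up 74.8% of that sum in replicate 1 and 82.9% in replicate 2. Dhh made up 23.8% and 15.5%. Ihh accounted for 1.36% and 1.62%.

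Hhip, which encodes the antagonist, was the highest of all 9 genes at 84.31 and 83.23 TPM (83.8 ± 0.76 TPM), from 8616.74 and 5715.13 expected counts. Of the detected coding genes, 85.6% were lower. Hhip (ENSMUSG00000064325) is on the minus strand of chromosome 8 at 79965851 to 80058006. Ptch1, the receptor gene, stood at 20.89 and 20.62 TPM (20.8 ± 0.19 TPM) and lies on the minus strand of chromosome 13 at 63508328 to 63573598 (ENSMUSG00000021466). Smo, the transducer that PTCH1 restrains, stood at 23.31 and 23.48 TPM (23.4 ± 0.12 TPM), on the plus strand of chromosome 6 at 29735503 to 29761365 (ENSMUSG00000001761).

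Receptor and transducer were thus close to each other and to the median of 19.04 TPM over detected coding genes. Smo exceeded Ptch1 by 0.17 ± 0.02 on the log2 scale, a small difference that exceeded 2 SD of the replicates. Hhip exceeded Ptch1 by 2.01 on the log2 scale in each library, and the log2 ratio of Shh to Hhip was -3.26 ± 0.13.

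Among the GLI genes the order was Gli3, Gli1, Gli2. Gli3, whose product acts mainly as a repressor, stood at 11.36 and 11.51 TPM (11.4 ± 0.11 TPM), from 1923.56 and 1284.79 expected counts. It lies on the plus strand of chromosome 13 at 15463235 to 15730026 (ENSMUSG00000021318). Gli1, an activator that is itself a standard readout of the pathway, stood at 7.68 and 7.95 TPM (7.82 ± 0.19 TPM), on the minus strand of chromosome 10 at 127329882 to 127341974 (ENSMUSG00000025407). Gli2, the main initial activator, stood at 5.17 and 4.66 TPM (4.92 ± 0.36 TPM), on the minus strand of chromosome 1 at 118834132 to 119053619 (ENSMUSG00000048402).

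Gli3 exceeded Gli1 by 0.55 ± 0.02 and Gli2 by 1.22 ± 0.12 on the log2 scale, and Gli1 exceeded Gli2 by 0.67 ± 0.14. Their summed level was 24.21 and 24.12 TPM. Gli3 made up 46.9% and 47.7% of it, Gli1 31.7% and 33.0%, and Gli2 21.4% and 19.3%, so the composition of the trio was close in both pools. These are RNA levels, and the balance of GLI activator to GLI repressor depends on protein processing that was not measured.

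Ordered by mean level, the 9 genes ran Hhip, Smo, Ptch1, Gli3, Shh, Gli1, Gli2, Dhh, Ihh. Of the 8 neighbouring pairs, 7 kept their order in both replicates with a mean log2 ratio over 2 SD. The exception was Shh over Gli1, at 0.16 ± 0.08, which did not differ beyond that spread. Gli3 over Shh met it at 0.39 ± 0.10, but this order depended on how reads at the Shh locus were assigned, as given below. The median of the members was 8.24 and 9.23 TPM, under the 19.04 TPM of detected coding genes. Smo and Ptch1 exceeded 55.8% and 52.4% of detected coding genes. The GLI genes exceeded fewer of them, 36.2% for Gli3, 27.7% for Gli1 and 18.8% for Gli2. Of the detected ligands, Shh exceeded 30.1% and Dhh 6.9%.

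**Figure D1:**
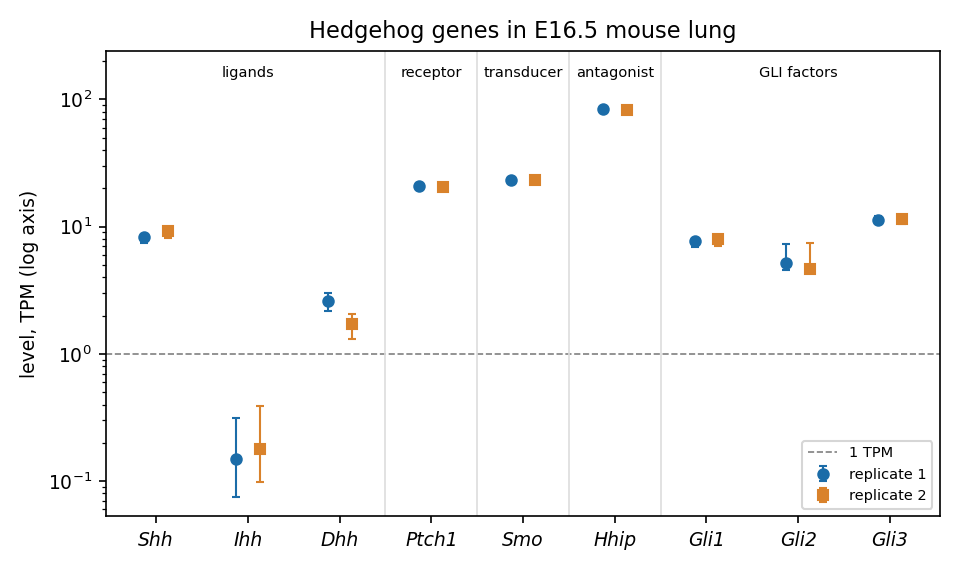
Level of each hedgehog gene in TPM on a log axis, grouped by role, with 1 point per replicate and bars for the deposited credibility bounds. Hhip sits near 84 TPM, Smo and Ptch1 between 20.62 and 23.48 TPM, and Ihh is the gene under the line at 1 TPM.

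Shh, Hhip, Ptch1 and the GLI genes were also set against a gene of the compartment in which hedgehog biology places them. Epithelial markers were all detected, with a median of 238 ± 16 TPM over 5 genes, as were mesenchymal markers, with a median of 326 ± 7.0 TPM over 5. Relative to Epcam, a surface protein of epithelial cells at 250.02 and 249.35 TPM, Shh had a log2 ratio of -4.84 ± 0.12. Its log2 ratio to Nkx2-1, the transcription factor of lung epithelial identity, was -2.99 ± 0.33. Nkx2-1 itself stood at 77.0 and 62.63 TPM, so the spread of the second ratio holds that of both genes.

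The receiving genes were set against Tcf21, a transcription factor of lung mesenchyme at 321.53 and 331.39 TPM. The log2 ratio to Tcf21 was -1.96 ± 0.04 for Hhip, -3.975 ± 0.044 for Ptch1, -4.835 ± 0.017 for Gli3, -5.385 ± 0.004 for Gli1 and -6.055 ± 0.137 for Gli2. Of these, the ratio of Gli1 differed least between the pools and that of Gli2 most. Whole-tissue RNA does not show in which cells either gene of a ratio was made.

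Of the 9 genes, Shh, Dhh, Smo and Gli1 had 1 annotated transcript each, and the other 5 had several. All 5 had the same leading transcript in both replicates, each annotated as coding for protein and each at 50% or more of the gene's TPM. Ptch1-202 held 80.5% and 84.4% of Ptch1 TPM. Ptch1-204, annotated as a target of nonsense-mediated decay, was next at 11.3% and 8.90%.

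Hhip-201, the coding transcript, held 84.4% and 78.8% of Hhip TPM. The remainder fell to Hhip-202, a short processed transcript of 909 nt with no coding sequence. It had 15.6% and 21.2% of TPM but only 278.24 and 264.41 of the expected counts, against 8338.50 and 5450.72 for Hhip-201. With coding transcripts alone, Hhip stood at 71.17 and 65.62 TPM and remained the highest member.

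Gli2 showed the same split between reads and level more sharply. Gli2-201 held 97.9% and 98.4% of the expected counts but 74.4% and 71.3% of the TPM, while Gli2-202, a processed transcript of 367 nt, held 21.6% and 28.7% of the TPM from 7.81 and 6.64 counts. Counting coding transcripts alone, Gli2 stood at 3.95 and 3.32 TPM. The credibility interval deposited for the gene was wide and lay mostly above the value itself, 4.57 to 7.34 TPM in the first library and 4.31 to 7.38 in the other. The level of Gli2 is therefore less certain than its 672 and 409 counts alone would give.

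Gli3-201 held 72.7% and 64.4% of Gli3 TPM. The coding Gli3-202 held 17.8% and 19.4%, and Gli3-203, which retains an intron, 9.51% and 16.2%. For Ihh, Ihh-201 took 6.75 and 8 counts, too few for its shares to be read. Of the 29 annotated transcripts of the 9 genes, 7 were listed at 0 in both libraries.

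**Figure D2:**
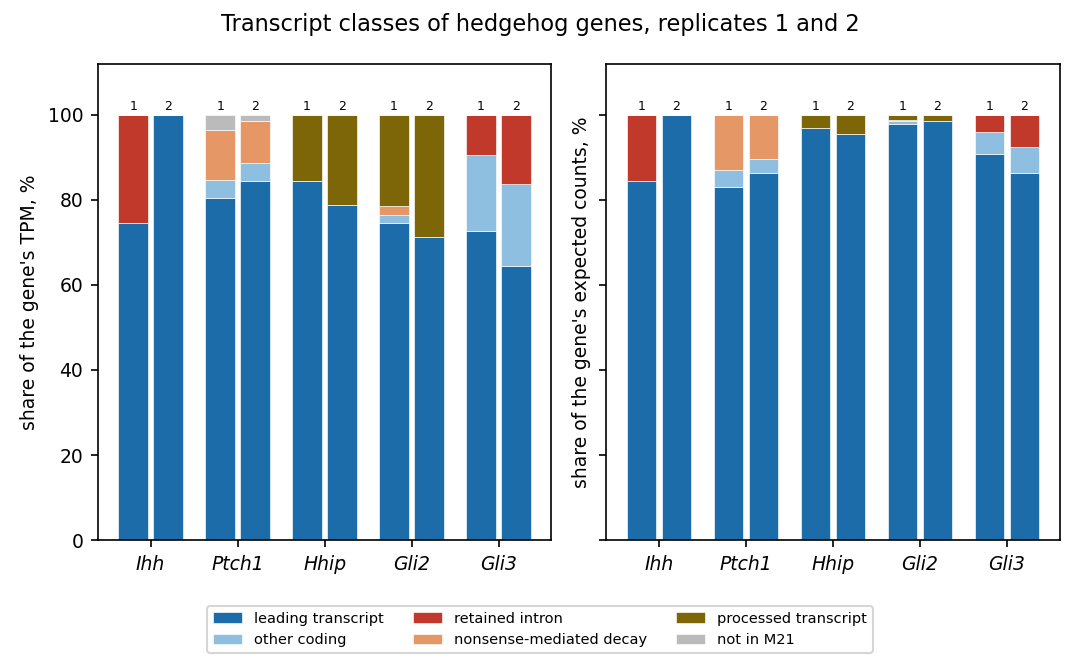
Share of each multi-transcript gene held by its annotated transcript classes, in percent of TPM (left) and percent of expected counts (right), with bars for replicates 1 and 2. The processed transcripts of Hhip and Gli2 take a larger share of TPM than of counts, and the leading transcript is over 50% in every bar.

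The expected counts of 6 members were whole numbers to within 0.02, as were those of 69.8% of all genes averaging 1 TPM or more, so they gave no sign of reads divided with another gene. Those of Shh, Hhip and Gli3 were not whole. In 3 of 3 cases they became whole when the counts of genes that overlap them on the opposite strand were added, as reads divided among overlapping genes would give. The strand setting is not given in the sources used here.

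Shh shares 361 exon bases with the long noncoding gene Gm26894 (193.55 and 129.14 counts, chromosome 5 at 28466374 to 28480973) and 446 with the antisense gene 9530036O11Rik (33.38 and 26.15 counts). With all of those reads, Shh would have 785.00 and 598.99 counts, 1.41 and 1.35 times its own, or 11.59 and 12.46 TPM at the same length. That is an upper value for Shh, since reads can come from the other genes. The same sum moved Hhip by 1.01 times in each library, with Gm27820, and Gli3 by 1.01 and 1.02 times, with Gm6556. With these reads added, Gli3 and Shh no longer differed beyond 2 SD (-0.05 ± 0.06 on the log2 scale, Gli3 over Shh), and Shh then exceeded Gli1 by 0.62. The place of Shh relative to Gli3 thus rests on the assignment of these reads, while Gli3 over Gli1 was 0.55 ± 0.02 without them and 0.57 ± 0.02 with them.

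Dhh overlaps Rhebl1 on the same strand by 546 exon bases of the later annotation. Rhebl1 had 209 and 171 counts, and the counts of both genes were whole. Gli1 overlaps Arhgap9 on the opposite strand by 62 such bases. Arhgap9 had 197 and 173 counts, and the counts of Gli1 and Arhgap9 were whole too. The transcript models used for the deposited values were also shorter than the later ones for several members, 4582 against 9074 nt for Hhip-201 and 2363 against 4242 nt for Dhh-201. Levels per length rest on those shorter models.

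Between the pools, 0 of the 8 members averaging 1 TPM or more differed 2-fold, where 4.6% of all such genes did. Dhh came closest, at 2.62 and 1.72 TPM, or -0.41 as log2(TPM + 1) of replicate 2 less that of replicate 1, a scale on which differences of low genes come out smaller. The credibility intervals deposited for Dhh, 2.18 to 2.99 TPM and 1.30 to 2.07 TPM, did not overlap, while those of Shh, 7.38 to 8.75 TPM and 8.13 to 9.86 TPM, did. The Dhh ratio of counts, each divided by its library's total over gene rows, was 0.665 with an exact 95% binomial interval of 0.496 to 0.885. The other differences ran from -0.12 for Gli2 to 0.15 for Shh, and 4 of 8 members were higher in replicate 2. On counts scaled by TMM or by DESeq2 size factors, Gli3 turned from 0.017 to -0.097 and -0.103 and Smo from 0.010 to -0.003 and -0.007, and Hhip went from -0.018 to -0.109 and -0.114. Shh and Gli1 were then the 2 of 8 that were higher. On log2(TPM + 1), the median over the 8 was -0.004, against 0.002 over all genes.

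The counting interval left out 1 for 4 of 8 members, where it did for 35.1% of all genes averaging 1 TPM or more. These were Shh at 1.14 (1.003 to 1.29), Dhh as above, Hhip at 0.9495 (0.918 to 0.982) and Gli2 at 0.871 (0.769 to 0.987). The intervals of Ptch1 at 1.01 (0.961 to 1.06), Smo at 1.02 (0.958 to 1.09), Gli1 at 1.05 (0.936 to 1.18) and Gli3 at 0.956 (0.890 to 1.03) included 1. Such an interval covers counting error only and holds no variation between pools. For Shh its lower bound was close to 1, and the counts were those left by the division of reads described above. The intervals used library totals over gene rows and were not computed on other scalings. Against the spread of other genes at a like level, all 8 lay within 1 SD. That SD was 0.527 on the log2(TPM + 1) scale over the 6238 genes at 1 to 10 TPM and 0.243 over the 7597 genes at 10 to 100 TPM. The share of all these genes within 1 SD was not counted, so the count of 8 does not set the members apart.

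Markers of liver, of skeletal muscle and of thymus and lymphoid tissue did differ between the pools. In replicates 1 and 2, liver markers summed to 49.6 and 417 TPM, skeletal muscle markers to 149 and 432 TPM, and thymus and lymphoid markers to 12.9 and 32.8 TPM. Of 5 genes each, 5, 4 and 5 differed 2-fold, where 4.6% of all genes averaging 1 TPM or more did. The marker lists were chosen with earlier results of these data known, so these counts cannot be tested against that share. Cardiac muscle markers summed to 883 and 672 TPM, and none of the 5 differed 2-fold. Of these 5, 1 was higher in replicate 2, Nppa at 102.05 and 136.31 TPM. Whole-tissue RNA does not show whether the cardiac transcripts came from within the lung. The part of any of these lists in the values of the hedgehog genes was not tested.

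For the ligands, markers of other known sources were set beside the values. Schwann cell markers, relevant to Dhh, summed to 27.98 and 26.71 TPM, with 2 of 5 detected. Sox10, the defining transcription factor of these cells, stood at 0.69 and 0.56 TPM, Cdh19 at 0.21 and 0.17 TPM and Erbb3, which epithelial cells also express, at 23.18 and 22.49 TPM. Markers of gut and oesophagus epithelium, in which Shh is also made, summed to 5.70 and 10.6 TPM, with 2 of 5 detected. Krt13 stood at 3.74 and 6.84 TPM and Trp63 at 1.54 and 2.88 TPM. Cdx1 (0.07 and 0.13 TPM) and Vil1 (0.35 and 0.71 TPM) were not detected. The gut factor Cdx2 was listed at 0 in replicate 1, with 0.07 TPM in the other. Whole-tissue RNA does not show whether Krt13 and Trp63 came from these tissues or from the airways of the lung. The part of either list in the ligand levels was not tested.

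**Figure D3:**
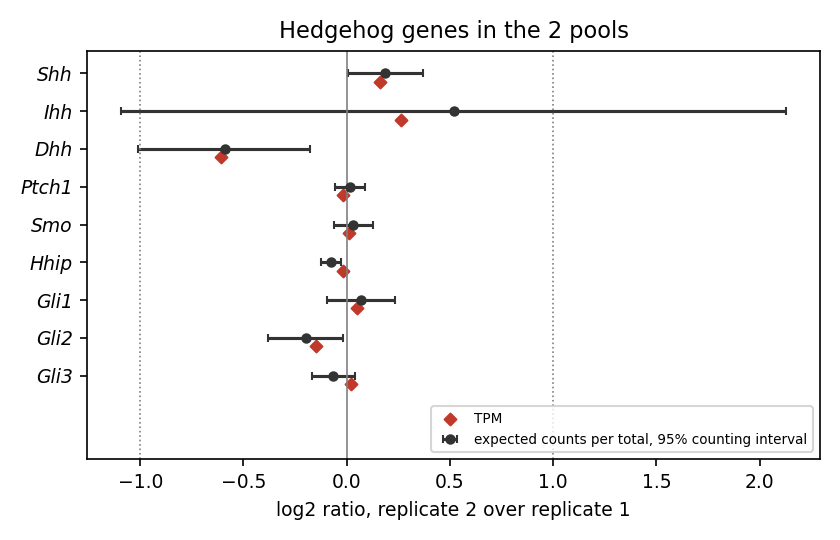
Log2 ratio of replicate 2 to replicate 1 for each hedgehog gene, as TPM (diamonds) and from expected counts per library total over gene rows (circles, bars for the 95% counting interval), with a solid line at equality and dotted lines at 2-fold. All TPM ratios lie between the 2-fold lines, Dhh is farthest below equality, and Ihh, with 8 counts per library, has the widest bar.

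Of 36 other genes of the pathway, 33 were detected, where 61.5% of genes annotated as coding for protein were. That share is also the background for each list below. The lists were chosen with earlier results of these data known. Of the 33 averaging 1 TPM or more, 0 differed 2-fold between the pools, where 4.6% of all such genes did. In TPM, the 33 were lower in replicate 2 more often than higher, with 7 of 33 higher, where 50.2% of all genes were. This count depended on the scale. Scube3, Cdon, Btrc, Evc and Evc2 were lower in TPM but had ratios of counts per library total above 1. These ran from 1.005 for Evc2 to 1.139 for Cdon, with counting intervals that included 1. With these totals the rest kept their direction. Ratios on TMM or DESeq2 scaling were not computed for these genes, and several ratios lay close to 1. The median difference of the 33 was -0.089 on the log2(TPM + 1) scale, against 0.002 over all genes.

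Genes of ligand maturation and release were low. Their median was 3.08 ± 0.16 TPM, with 5 of 6 detected. Hhat, the acyltransferase that attaches palmitate to the ligand, was the highest at 7.78 and 7.21 TPM. Scube3, from a family of secreted ligand carriers, was the lowest detected at 1.05 and 1.04 TPM. Disp2, a relative of the ligand exporter Disp1, was not detected at 0.55 and 0.86 TPM.

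The coreceptors, listed together with the glypican gene Gpc3, had a median of 9.94 ± 0.80 TPM, with 4 of 5 detected. Gpc3, a cell-surface glypican that binds hedgehog and restrains its signal, was the highest at 400.15 and 378.27 TPM, above all 9 members. Cdon, a coreceptor, was the lowest detected at 2.97 and 2.62 TPM. Lrp2, an endocytic receptor, was not detected at 0.25 and 0.32 TPM.

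Genes of signal relay and GLI regulation had a median of 18.04 ± 0.50 TPM, with 15 of 16 detected. Csnk1a1, a kinase that takes part in the processing of GLI proteins, was the highest at 224.64 and 211.76 TPM. Kif7, the ciliary kinesin, was the lowest detected at 3.09 and 2.70 TPM, and Gpr161, a ciliary receptor that keeps the pathway low, was not detected at 0.75 and 0.70 TPM. Sufu, which holds GLI proteins in check, stood at 27.73 and 23.28 TPM and exceeded Gli1 by 1.70 ± 0.21 on the log2 scale.

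All 9 genes listed as targets were detected, with a median of 28.7 ± 3.6 TPM. Foxf1, a transcription factor of lung mesenchyme, was the highest at 115.86 and 105.81 TPM, and Foxl1, another forkhead factor of mesenchyme, was the lowest at 2.79 and 2.59 TPM. Of the 9, 2 were higher in replicate 2. The target genes that are members, Gli1, Ptch1 and Hhip, also differed in level, with a log2 ratio of Gli1 to Hhip of -3.42 ± 0.05 and of Gli1 to Ptch1 of -1.41 ± 0.05. Both ratios were over 2 SD of the replicates.

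**Figure D4:**
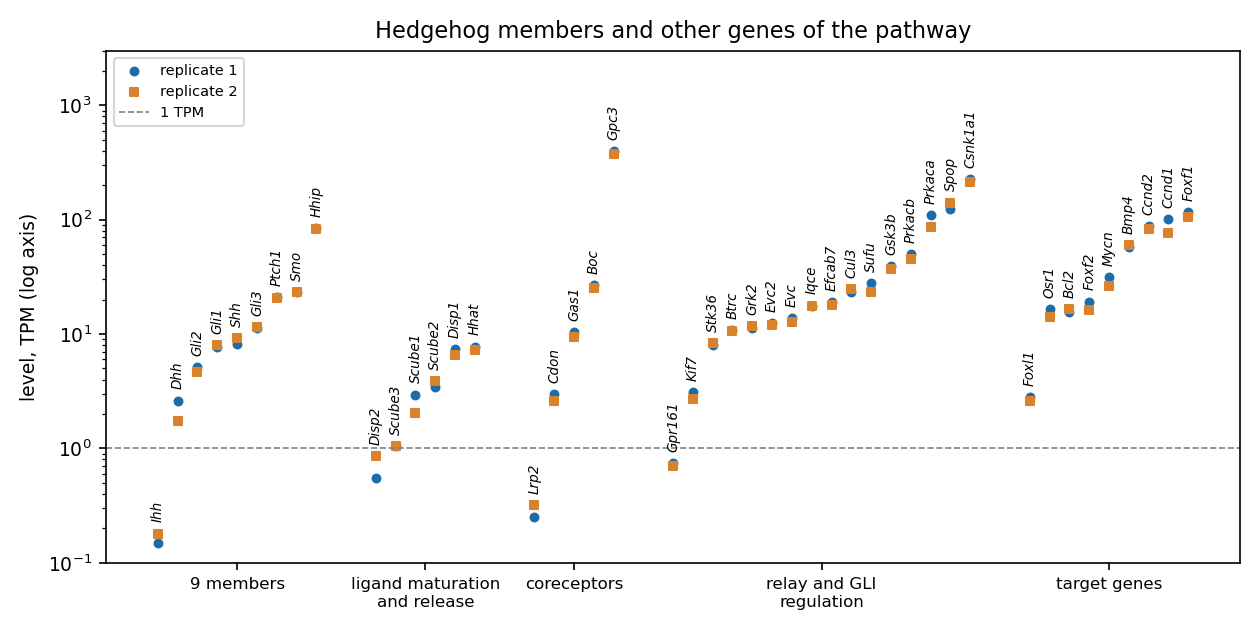
Level in TPM on a log axis of the hedgehog members and of the other pathway genes grouped by role, with 1 point per replicate and genes ordered by mean level within a group. Gpc3 and Csnk1a1 are the highest, and Ihh, Disp2, Lrp2 and Gpr161 lie under the line at 1 TPM.

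RefSeq promoters (build GRCm38.p6, 250 bases before to 50 after the start) were matched for 7 of 9 members, all but Shh and Gli1. The GLI binding core, GACCACCCA, searched on both strands, was in 0 of these 7 and in 0.253% of 32851 promoters of this length. The 7 promoters were rich in G and C, at 61.7% to 76.3% against a median of 52.7% over all promoters. Their CpG number ran from 12 for Dhh to 47 for Ptch1, against a median of 7. The 250 bases before the start of Hhip (chr8:80058009-80058258, minus strand), Ptch1 (chr13:63565736-63565985, minus strand) and Dhh (chr15:98898541-98898790, minus strand) show this range for the highest member, the receptor and the lowest detected member, 5′ to 3′ with each CpG in capitals.
Hhip: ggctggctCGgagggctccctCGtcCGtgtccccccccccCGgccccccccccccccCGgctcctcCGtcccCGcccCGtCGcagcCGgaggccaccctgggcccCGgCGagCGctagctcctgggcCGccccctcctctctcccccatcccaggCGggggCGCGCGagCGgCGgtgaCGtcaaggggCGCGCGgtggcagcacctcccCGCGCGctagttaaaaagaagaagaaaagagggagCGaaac
Ptch1: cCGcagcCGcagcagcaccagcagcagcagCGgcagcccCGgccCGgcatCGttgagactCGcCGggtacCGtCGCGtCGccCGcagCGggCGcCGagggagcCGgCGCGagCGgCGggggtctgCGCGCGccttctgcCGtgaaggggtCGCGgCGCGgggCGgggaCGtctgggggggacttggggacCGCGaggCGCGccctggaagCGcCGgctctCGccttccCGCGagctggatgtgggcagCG
Dhh: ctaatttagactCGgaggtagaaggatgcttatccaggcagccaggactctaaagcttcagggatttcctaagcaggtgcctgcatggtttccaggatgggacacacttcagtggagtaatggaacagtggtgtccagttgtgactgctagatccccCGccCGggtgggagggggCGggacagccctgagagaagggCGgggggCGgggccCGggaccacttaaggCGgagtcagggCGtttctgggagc
Within these windows Hhip had 28 CpG, Ptch1 41 and Dhh 9. The RefSeq start of Ptch1 is that of Ptch1-201, which held 2.99% of its TPM, and the leading Ptch1-202 starts 1200 nt downstream, so the window shown is not directly before the main start in these libraries. For Hhip the leading transcript starts 2 nt from the RefSeq start, and for Dhh at the same base.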

How the data were processed

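Gene and transcript tables of the 2 libraries rest on mouse build mm10 and GENCODE M4, per the deposited notes. The aligner and quantifier are not given in the sources used here. RNA came from an Ambion mirVana extraction, with 10 ng of RNA over 200 nt and spike-ins per library, per the labels. The expected counts the authors deposited are estimated reads per gene, with shared reads divided among genes. The TPM values the authors deposited divide these by effective length and scale to a fixed total that includes spike-ins (5.16% and 5.02% of TPM). The score columns deposited beside them are bounds of a credibility interval, and all 9 members' TPM values lay inside. The percent values deposited per transcript are shares of the gene's TPM.

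Symbols, classes and coordinates came from GENCODE M21 by identifier (42462 of 43346 gene rows). The 26248 rows with bare numbers and 97 spike-in rows entered no comparison. Differences used log2(TPM + 1), while 2-fold was counted on the plain TPM ratio, among genes averaging 1 TPM or more. An order or ratio was said to hold where its mean log2 ratio was over 2 SD and both replicates had its sign. Intervals are exact at 95%, binomial for ratios and Poisson for counts, and cover counting error only. Expected counts were rounded for scaling factors from edgeR 4.0.16 and DESeq2 1.42.0 in R 4.3.3. Other steps used Python 3.11.15, NumPy 2.4.6, pandas 2.3.3, SciPy 1.17.1 and matplotlib 3.10.9, and the counting steps were tested on simulated data.

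All members are named. Of each other pathway list, the highest and lowest detected gene, those not detected and those differing 2-fold are named, and Sufu enters through a ratio set by role. Some genes are not reported here. Members, lists and ratios were chosen with earlier results of these data known. Alternatives covered the estimate, scaling, pseudocount, thresholds, length and replicates. Amino acid sequences were not used here.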

Additional observations from a re-analysis of the deposited data

How the results depend on the processing

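Of the alternatives, 2 were chosen after seeing the data, namely coding transcripts alone and reads of overlapping opposite-strand genes added. Adding those reads moved the median level of the 9 members from 8.735 to 11.62 TPM and turned Gli3 over Shh to -0.049 on the log2 scale. With coding transcripts alone Gli3 over Shh was 0.192 ± 0.181, within 2 SD. With expected counts not divided by length, Ptch1 over Smo turned to 0.697, since the Ptch1 transcripts are longer, and Gli2 over Gli1, at -0.226 ± 0.19, came within 2 SD. The count of all genes that differed 2-fold was 712 of 15493. With no filter on low values it was 2849 of 21881, and with a mean of at least 5 TPM 159 of 11331. It stayed 0 among the members under each of these filters. Posterior mean TPM gave 684 of 18956, since the filter then used that estimate. TMM or DESeq2 scaling and rescaling over gene rows alone gave 676 to 706 of 15493. At a threshold of 5 TPM, 6 members and 27 of 36 other pathway genes were detected, and at 0.5 TPM 8 and 35. Leaving out a replicate gave a member median of 8.24 to 9.23 TPM and 8 members detected, and left the replicate difference without a value. No paired analysis was possible because the series holds 1 group. Depth limits Ihh most, at 8 counts per library.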
